A study of Mus musculus with 8 samples.

Results

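The 10 genes described here encode enzymes of glycolysis, the pathway that splits glucose into pyruvate, together with the lactate dehydrogenase gene *Ldha*. They are *Gpi1*, *Pfkl*, *Pfkm*, *Pfkp*, *Aldoa*, *Tpi1*, *Pgk1*, *Pgam1*, *Pkm* and *Ldha*, and were found by their gene symbols among the 49585 Ensembl mouse genes counted in newborn brains, where each symbol had 1 identifier. RNA-seq reads were counted in whole brains of 8 female (C57BL/6 x CAST/EiJ) F1 pups, the B × C cross (C57BL/6J mother, CAST/EiJ father), collected on postnatal day 1 (within a day of birth). The dams of 4 pups drank water with 50 ppm Cd, given as CdCl2, from before mating until birth, and the dams of the other 4 drank water with 0 ppm, so that both groups share strain, cross, sex and age. Each pup came from a different litter, the brain was pulverized whole, and RNA was taken from a small part of the powder, so a library holds neurons, glia, vessels and blood together. In such tissue, fewer cells of a type and less RNA per cell cannot be told apart. Counts summed to 22916434 to 30708087 per library, and the 10 genes took 1341 to 17927 counts each per library, so counting error was small beside the spread between brains. The neuronal markers *Snap25*, *Syt1*, *Stmn2* and *Rbfox3* were counted in every brain, with a summed level of 2099 to 2494 CPM over the list of neuronal genes, in which *Tubb3* was listed at 0 in all 8 libraries, and the skeletal muscle markers summed to 9.0 to 10.7 CPM.

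Glycolysis turns 1 glucose into pyruvate in the cytosol and yields ATP and NADH. Glucose enters neurons and astrocytes through transporters, is phosphorylated by hexokinase, and passes through isomerase, phosphofructokinase, aldolase, triose phosphate isomerase, phosphoglycerate kinase, phosphoglycerate mutase, enolase and pyruvate kinase in turn. Lactate dehydrogenase interconverts pyruvate and lactate, which regenerates NAD+ and lets glycolysis run without oxygen. Many of these genes are textbook targets of the hypoxia-inducible factor HIF-1, whose usual binding site holds the letters ACGTG. The question of the comparison is how maternal Cd exposure alters gene expression in the newborn brain, here for the RNA of these enzymes.

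No glycolysis enzyme gene differed between 50 ppm and 0 ppm at the adjusted threshold of 0.05 (edgeR quasi-likelihood test, Benjamini-Hochberg adjustment over 23113 genes), while 4 genes, 0.0173% of all genes tested, passed it. The direction was the same for all 10: every enzyme gene had a higher mean at 50 ppm, by 2.37% for *Pfkm* to 18.7% for *Gpi1*. The median log2 fold change of the 10 was 0.18, beside a median of -0.0033 over all genes tested, 49.0% of which had a positive value. In 9 of the 10 genes, the unadjusted p-value was at or above 0.05, and only *Gpi1* had a smaller one. Of all genes tested, 3.75% had an unadjusted p-value under 0.05, 2.31% with a higher and 1.44% with a lower level at 50 ppm. The doses overlapped in all 10 genes, as they did in most genes tested. Of all genes, 1.19% did not overlap with higher and 0.904% with lower levels at 50 ppm. A single control, 0 ppm replicate 3, had higher levels of most of these genes than the other controls, and the results are therefore also given without it.

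To show the DNA ahead of these genes, promoter windows of 300 bases (250 before and 50 after the transcription start, RefSeq, GRCm38.p6) were read for the 10 genes, which have 17 windows. All sequences are printed 5′ to 3′ in the direction of the gene. Capitals mark the letters ACGTG and their reverse complement CACGT, searched on both strands, and CACGTG holds both, overlapping. Shown are the *Ldha* window with the most matches, those of *Pgk1* and *Pgam1*, which have 1 window each with matches, and that of *Gpi1*, the gene with the smallest p-value, which holds no match. The other *Ldha* window, not shown, holds no match.
Ldha, chr7:46845554-46845853, plus strand: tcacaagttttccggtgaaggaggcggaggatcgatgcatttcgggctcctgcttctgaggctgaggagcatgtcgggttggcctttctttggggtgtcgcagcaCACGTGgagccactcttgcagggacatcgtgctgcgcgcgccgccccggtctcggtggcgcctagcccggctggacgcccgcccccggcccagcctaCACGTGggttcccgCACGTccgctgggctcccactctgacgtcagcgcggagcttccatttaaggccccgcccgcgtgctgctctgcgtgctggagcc
Pgk1, chrX:106186850-106187149, plus strand: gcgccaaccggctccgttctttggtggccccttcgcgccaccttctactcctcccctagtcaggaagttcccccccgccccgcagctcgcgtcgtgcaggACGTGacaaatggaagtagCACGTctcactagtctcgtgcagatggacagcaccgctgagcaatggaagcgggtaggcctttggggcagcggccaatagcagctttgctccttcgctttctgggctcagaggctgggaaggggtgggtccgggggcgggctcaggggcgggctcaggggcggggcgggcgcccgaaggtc
Pgam1, chr19:41911621-41911920, plus strand: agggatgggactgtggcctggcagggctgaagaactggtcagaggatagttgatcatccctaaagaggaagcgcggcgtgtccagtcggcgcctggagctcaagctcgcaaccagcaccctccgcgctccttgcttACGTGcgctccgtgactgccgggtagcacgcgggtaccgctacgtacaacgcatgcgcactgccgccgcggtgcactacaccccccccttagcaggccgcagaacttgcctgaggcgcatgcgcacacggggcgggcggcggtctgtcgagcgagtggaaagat
Gpi1, chr7:34230287-34230586, minus strand: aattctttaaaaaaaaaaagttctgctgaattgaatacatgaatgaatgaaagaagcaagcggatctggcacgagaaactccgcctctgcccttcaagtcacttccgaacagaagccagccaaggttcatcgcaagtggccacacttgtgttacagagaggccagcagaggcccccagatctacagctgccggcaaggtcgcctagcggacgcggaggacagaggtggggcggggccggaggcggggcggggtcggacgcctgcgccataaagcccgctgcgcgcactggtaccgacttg

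The *Ldha* window shown held 5 matches, in 3 blocks of capitals, the *Pgk1* window 2 and the *Pgam1* window 1. At least 1 match was found in 8 of the 17 windows (47.1%), which belong to 6 of the 10 genes: *Ldha*, *Aldoa*, *Pkm*, *Pfkm*, *Pgam1* and *Pgk1*. The 2 *Aldoa* windows with a match overlap and share a single site. Of all 32851 RefSeq promoter windows, 19.6% held a match, and of the windows of genes tested here 22.8% did; counted by gene, 21.8% of all genes and 26.2% of genes tested had a match in any window. The 10 genes have 17 windows, while the 32851 windows belong to 27025 genes. With more windows per gene, a match in any window is more likely for the 10. A match is a string of letters and not a measured binding site. The other 4 genes, *Gpi1*, *Pfkl*, *Pfkp* and *Tpi1*, do not have these letters in their windows, and no test of the letters against the fold changes was made.

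Glucose-6-phosphate isomerase, which turns glucose 6-phosphate into fructose 6-phosphate, is encoded by *Gpi1* (chr7:34201330-34230336, minus strand, GRCm38). *Gpi1* had 182, 221, 275 and 225 CPM (counts relative to the library size, after TMM normalization) in 0 ppm replicates 1 to 4, and 226, 259, 294 and 292 CPM in 50 ppm replicates 1 to 4. Every exposed brain lay above 3 of the controls, while the highest control, replicate 3, lay above 2 exposed brains, so the groups overlapped. Mean levels were 226 ± 38.2 and 268 ± 32.1 CPM (SD, n = 4 each), and the log2 fold change was 0.25 (SE 0.11, 95% interval 0.03 to 0.47). The adjusted p-value was 0.999 for *Gpi1*, as for each of the other 9 genes (edgeR, adjusted p = 0.999). Of the exons of *Gpi1*, 11.5% overlap those of Gm26762 on the opposite strand, so part of its count is uncertain.

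Phosphofructokinase commits fructose 6-phosphate to glycolysis, and its 3 genes encode the liver-type (*Pfkl*, chr10:77986947-78010083), muscle-type (*Pfkm*, chr15:98092589-98132451) and platelet-type (*Pfkp*, chr13:6579768-6648777) subunits. *Pfkl* stood at 102, 77.6, 133 and 103 CPM in the control brains and at 102, 108, 124 and 109 CPM in the exposed brains, and its log2 fold change was 0.09 (interval -0.15 to 0.33). For *Pfkm*, the control brains had 179, 145, 181 and 160 CPM and the exposed brains 175, 182, 171 and 153 CPM, the smallest difference of the 10, at 0.03 on the log2 scale (interval -0.13 to 0.20). For *Pfkp*, they had 121, 99.7, 140 and 171 CPM and 193, 156, 137 and 129 CPM, a log2 difference of 0.21 (interval -0.08 to 0.49). In *Pfkp* the order of the brains was unlike that in the other genes, since the highest control was replicate 4 and the highest exposed brain replicate 1. All 3 genes overlapped between the doses. Of the exons of *Pfkm*, 10.2% overlap another gene on the same strand, and of those of *Pfkp*, 5.58% overlap Pitrm1 on the opposite strand.

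Aldolase A, which splits fructose 1,6-bisphosphate into a pair of 3-carbon sugars, comes from *Aldoa* (chr7:126795234-126800751). *Aldoa* had 269, 256, 360 and 292 CPM in the control brains and 321, 337, 336 and 340 CPM in the exposed brains. The exposed brains lay close together, all above 3 of the controls and below the fourth, 0 ppm replicate 3. Means were 295 ± 46.4 and 334 ± 8.52 CPM, and the log2 fold change was 0.18 (SE 0.09). Triose phosphate isomerase, from *Tpi1* (chr6:124810586-124814296), interconverts those sugars. *Tpi1* stood at 176, 142, 248 and 179 CPM in the control brains and at 199, 212, 237 and 216 CPM in the exposed brains, again all 4 exposed above 3 controls and below replicate 3. Its log2 fold change was 0.21 (SE 0.12, interval -0.04 to 0.46).

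*Pgk1* (chrX:106187100-106203699) encodes phosphoglycerate kinase, the first step that yields ATP, and *Pgam1* (chr19:41911923-41918660) phosphoglycerate mutase, which moves the phosphate group. The control brains had 79.5, 83.6, 106 and 77.9 CPM of *Pgk1* and the exposed brains 82.8, 92.4, 110 and 115 CPM, a log2 difference of 0.21 (SE 0.11, interval -0.02 to 0.43). They had 52.9, 52.6, 60.8 and 51.9 CPM and 52.2, 55.7, 58.6 and 61.9 CPM of *Pgam1*, a log2 difference of 0.06 (interval -0.10 to 0.23). For *Pgam1*, the controls other than replicate 3 lay close together, from 51.9 to 52.9 CPM, and the doses overlapped in both genes.

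Pyruvate kinase, the last step, is encoded in brain by *Pkm* (chr9:59656368-59679375), the gene of this set with the most reads. *Pkm* stood at 493, 452, 585 and 478 CPM in the control brains and at 515, 514, 539 and 557 CPM in the exposed brains, and its log2 fold change was 0.08 (interval -0.08 to 0.24). Of its exons, 15.3% overlap Gm49759 on the same strand. *Ldha* (chr7:46841475-46855627), the lactate dehydrogenase A subunit, stood at 237, 201, 278 and 194 CPM in the control brains and at 228, 244, 284 and 278 CPM in the exposed brains. Its means were 228 ± 38.4 and 259 ± 26.8 CPM, and the log2 fold change was 0.18 (interval -0.03 to 0.40). For *Pkm* only replicate 3 of the controls was above any exposed brain, while for *Ldha* replicate 1 of the controls was also above the lowest of them. The plot of levels by brain shows the overlap for each gene.

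**Figure D1:**
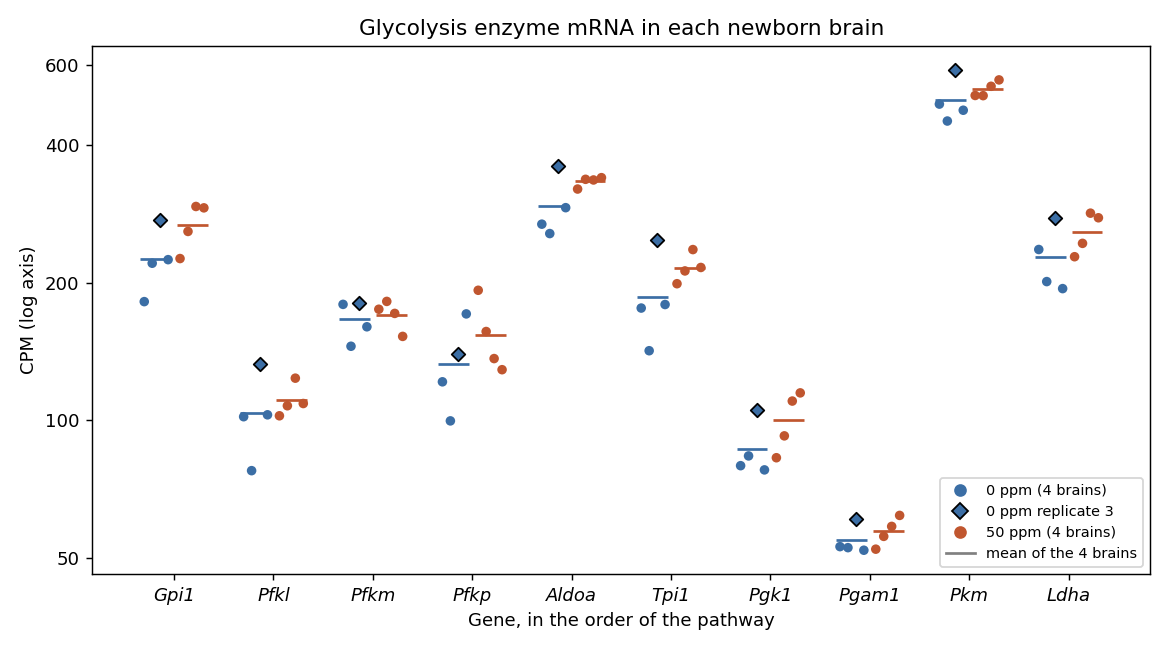
Levels of the 10 glycolysis enzyme genes (x axis, in pathway order) in CPM (y axis, logarithmic) in the 4 brains at 0 ppm (blue) and the 4 at 50 ppm (orange), with each point 1 brain, the diamond 0 ppm replicate 3 and each line the mean of 4 brains. The mean was higher at 50 ppm for every gene, and 0 ppm replicate 3 was the highest control for 9 of 10, all but *Pfkp*.

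The fold changes of the 10 genes lay between 0.03 and 0.25 on the log2 scale, and 9 of the 10 intervals included 0. Over all 8 brains, the upper bounds reached at most 0.49 (*Pfkp*), so a larger change lay outside the interval of every gene in that fit. Without 0 ppm replicate 3, the highest upper bound was 0.56 (*Tpi1*). The plot of fold changes shows both fits, with all 8 brains and without 0 ppm replicate 3.

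**Figure D2:**
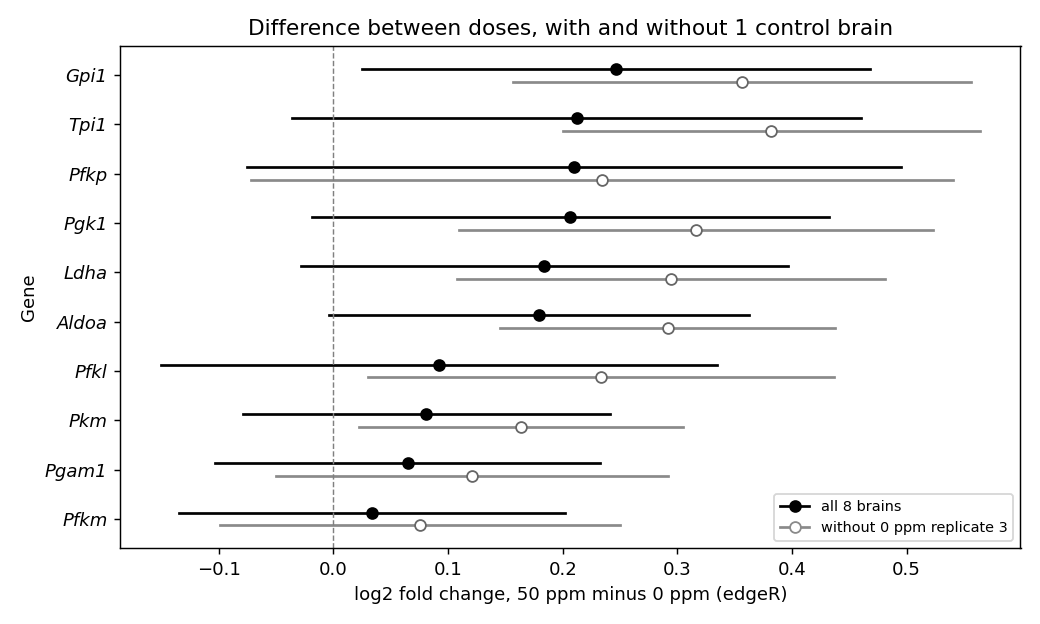
Log2 fold changes of the 10 genes (50 ppm against 0 ppm, edgeR) with their 95% intervals, over all 8 brains and without 0 ppm replicate 3. All 10 points lay above 0 in both fits, and the range of 0.03 to 0.25 moved to 0.08 to 0.38 without that brain. It was left out because most of these genes were high in it, so the upward move follows from the choice.

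Most of these genes were high or low in the same brains, and 1 control stood apart. The summed level of the 10 genes was 1892, 1732, 2367 and 1932 CPM at 0 ppm (mean 1981 ± 272) and 2094, 2162, 2290 and 2250 CPM at 50 ppm (mean 2199 ± 88.2). 0 ppm replicate 3 had the highest sum of all 8 brains, and the other 3 controls had the lowest sums. It was the highest control in 9 of the 10 genes, above the exposed mean in 9 and above every exposed brain in 4. Among the 4972 genes with a mean of at least 50 CPM at 0 ppm, the same brain was the highest control in 24.8%.

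**Figure D3:**
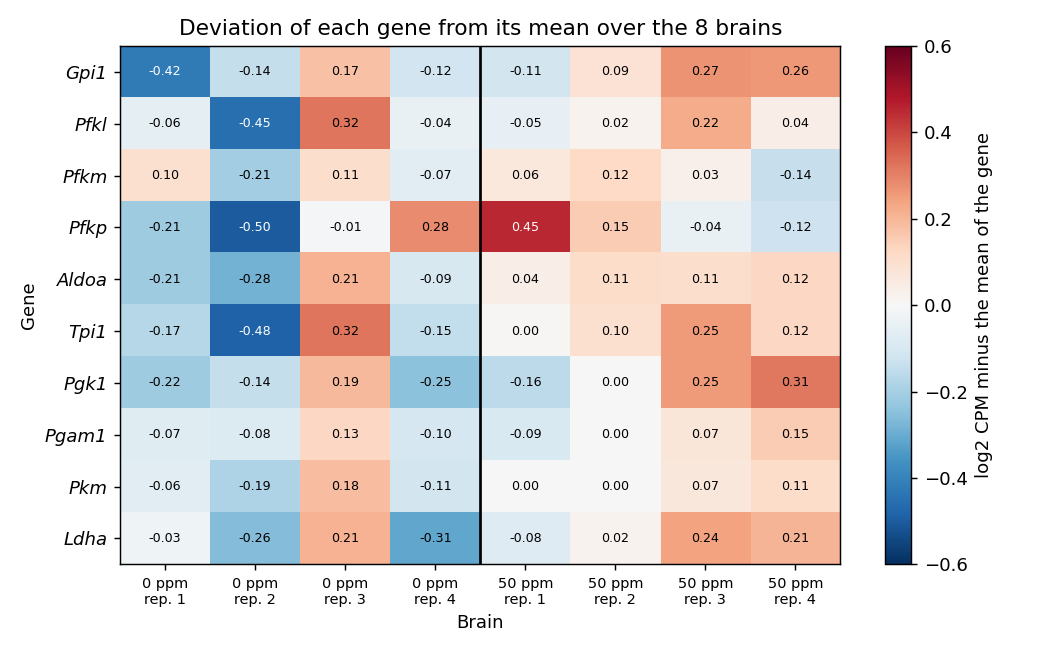
Deviation of each gene from its own mean over the 8 brains, in log2 CPM (rows, the 10 genes, columns, the 8 brains by dose and replicate). The column of 0 ppm replicate 3 is above 0 in 9 of 10 rows, and that of 0 ppm replicate 2 is below 0 in all 10.

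The controls differed among themselves more than the exposed brains did. The coefficient of variation of the 10 genes had a median of 16.3% at 0 ppm (7.65% to 23.9%) and of 7.84% at 50 ppm (2.55% to 18.5%), and was larger at 0 ppm in 9 of the 10, all but *Pgk1*. Over the 4972 genes with at least 50 CPM, the medians were 6.67% and 6.62%. 0 ppm replicate 2 was the lowest of all 8 brains in 6 genes, replicate 4 in 3 and replicate 1 in 1. This spread is a description of 4 brains a dose, with no test.

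Without 0 ppm replicate 3, all 10 log2 fold changes were again positive, with a median of 0.26, and 7 of 10 genes (*Aldoa*, *Gpi1*, *Ldha*, *Pfkl*, *Pgk1*, *Pkm* and *Tpi1*) had an unadjusted p-value under 0.05, beside 3.17% of all genes tested in that direction and 1.91% in the other. That brain was left out for its high levels of these same genes. Larger differences in them follow from that choice, and the share of all genes carries no such choice. None of the 10 passed the adjusted threshold, which 0.088% of genes passed, and the lowest adjusted p-value was 0.175 (*Tpi1*, edgeR). *Gpi1*, *Aldoa*, *Tpi1* and *Pkm* then had every exposed brain above the 3 other controls, as did 2.84% of all genes tested. Without 0 ppm replicate 2, which had the lowest levels, the median fell to 0.10, and *Pfkl* and *Pfkm* turned to -0.024 and -0.026. None of the 10 then had an unadjusted p-value under 0.05, beside 3.57% of all genes tested in either direction.

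Genes of other regions and cell types differed between the same brains. Among all genes tested, 2.31% were higher and 1.44% lower at 50 ppm at an unadjusted p-value under 0.05. The brainstem and spinal cord genes (12 listed, 10 tested) summed to 16.4, 20.1, 65.0 and 55.9 CPM at 0 ppm and to 121, 81.6, 54.0 and 72.6 CPM at 50 ppm, with 6 of 10 higher at an unadjusted p-value under 0.05 (*Prph* and *Lbx1* among them) and a median log2 fold change of 0.90. *Slc18a3* of that list was at 0 in all 8 libraries. With the score of that list in the model, the median log2 fold change of the 10 enzyme genes was 0.03, *Pfkl* and *Pfkp* had values of -0.029 and -0.054, and no gene had an unadjusted p-value under 0.05, beside 2.22% of all genes in the higher direction. In oligodendrocyte genes, 4 of 6 (*Mag* and *Mbp* among them) were higher at an unadjusted p-value under 0.05. The other 2 had negative log2 fold changes, the lowest -0.15. Their sums were 142 to 160 CPM at 0 ppm and 156 to 230 CPM at 50 ppm over all 6. In astrocyte genes, 3 of 6 (*Aqp4* and *Gja1* among them) were higher at that level, with sums of 769 to 975 and 968 to 1177 CPM. All 3 microglia genes, with *P2ry12* and *Csf1r*, were higher at that level, with sums of 53.5 to 64.9 and 61.8 to 78.2 CPM. Summed endothelial genes lay between 107 and 130 CPM at 0 ppm and between 112 and 140 CPM at 50 ppm, blood genes between 127 and 310 and between 99 and 402 CPM, and choroid plexus genes between 428 and 1144 and between 333 and 759 CPM. Since most genes of the brainstem list were themselves higher at 50 ppm, the fit with its score cannot tell makeup apart from dose. What part the makeup of the samples has in the levels of the enzyme genes was not tested.

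Levels of different genes were compared per kilobase of exon, from the GRCm38 annotation (GENCODE release 21). At 0 ppm, *Aldoa* had 101 ± 15.9 CPM per kilobase and *Pkm* 100.4 ± 11.6, ahead of *Ldha* (68.8 ± 11.6) and *Tpi1* (67.7 ± 16.2). Next came *Pfkm* (49.8 ± 5.06), *Pgk1* (38.6 ± 5.73), *Gpi1* (35 ± 5.93) and *Pgam1* (27.5 ± 2.10), and then *Pfkl* (15.5 ± 3.38) and *Pfkp* (9.92 ± 2.25). Of the 9 neighbours in this order, the ranges of the control brains separated *Pkm* from *Ldha* and *Pgam1* from *Pfkl*, and the others overlapped. Within single brains, *Tpi1* was above *Pfkm*, *Gpi1* above *Pgam1* and *Pfkl* above *Pfkp* in 8 of 8, *Pfkm* above *Pgk1* and *Pgk1* above *Gpi1* in 7 of 8, and *Aldoa* above *Pkm* in 6 of 8. At 50 ppm the order was the same except that *Tpi1* and *Ldha* changed places, and *Ldha* was above *Tpi1* in 3 of 8 brains. Both orders rest on the annotated exon lengths. As mean CPM at 0 ppm, *Pfkp* (133) and *Pfkl* (104) lay above *Pgk1* (86.6) and *Pgam1* (54.5).

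Where a step has several genes, the share of each gene's product per exon length does not depend on how a library is scaled. Per exon length, *Pfkm* held the largest share of the phosphofructokinase genes, with 68.8%, 69.5%, 64.1% and 63.0% at 0 ppm and 63.8%, 66.2%, 64.1% and 63.8% at 50 ppm. *Pfkl* held 20.5% ± 2.16 and 21% ± 2.25 and *Pfkp* 13.2% ± 2.42 and 14.5% ± 2.11 (SD, n = 4 each). The order rests on the exon lengths of the annotation: as shares of reads, *Pfkm* held 41.6% and 39.2%, *Pfkp* 32.8% and 35.2% and *Pfkl* 25.6% and 25.6%, so that *Pfkp* lay above *Pfkl*. None of the 3 shares differed beyond the spread between brains (exact two-sided permutation test over 70 labellings, adjusted p = 0.83 for *Pfkl* and 0.536 for the other two). The share of *Ldha* in *Ldha* and *Ldhb*, which encodes the heart-type subunit, was 45.7% ± 3.32 at 0 ppm and 47.8% ± 4.21 at 50 ppm (adjusted p = 0.536, same exact test). As a share of reads it was 63.9% and 65.8%, so which of the pair had more RNA depends on the scale. *Aldoa* held 76.2%, 74.1%, 72.2% and 72.5% of *Aldoa* and *Aldoc* at 0 ppm and 71.0%, 70.9%, 71.1% and 68.8% at 50 ppm. Every control lay above every exposed brain, a difference of -3.30 percentage points and an exact p of 0.0286, the smallest that 4 against 4 allows, which was 0.143 after adjustment over the 5 shares (exact permutation test). As a share of reads the difference was -3.46 percentage points, with the same adjusted value.

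**Figure D4:**
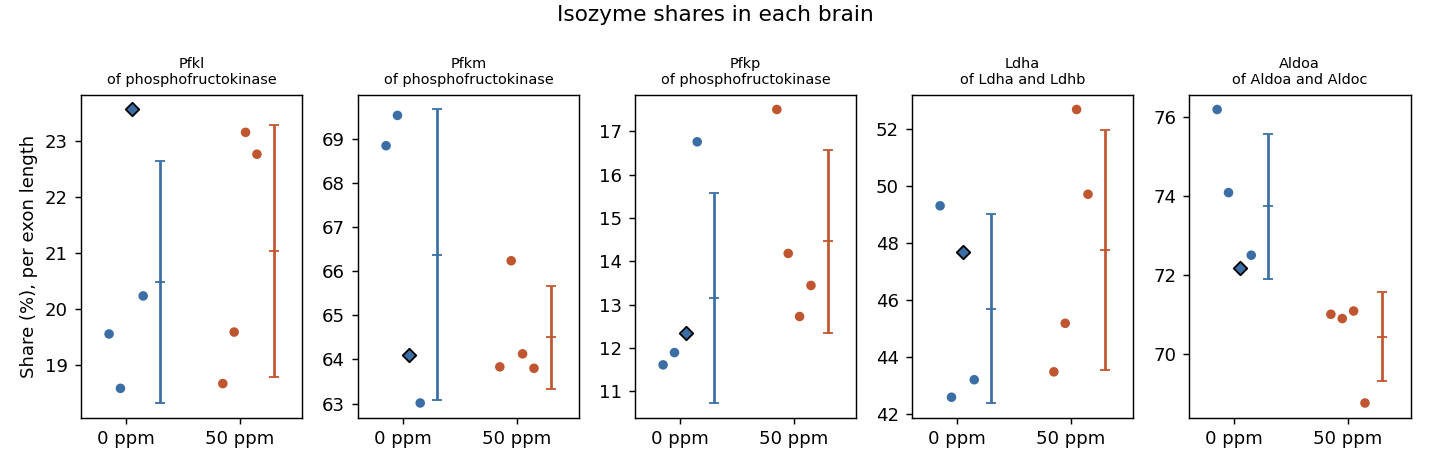
Share of each isozyme gene in its step, in percent per exon length, in each of the 8 brains (points, 0 ppm in blue and 50 ppm in orange, the diamond 0 ppm replicate 3, bars the mean with its SD). The y axes differ between panels and do not start at 0. The *Aldoa* share has controls at 72.2% to 76.2% and exposed brains at 68.8% to 71.1%, and the other 4 shares overlap between the doses.

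The other side of that share is *Aldoc*, the aldolase typical of astrocytes, which is not one of the 10 genes. It stood at 94.3, 101, 156 and 124 CPM in the control brains and at 147, 155, 153 and 173 CPM in the exposed brains, and the log2 fold change was 0.40 (SE 0.12, adjusted p = 0.831 by edgeR). Again 0 ppm replicate 3 was the control that reached the exposed brains. Without it the log2 fold change was 0.56 and the adjusted p-value 0.0195 (edgeR), the only one of the 15 alternatives in which *Aldoc* passed the threshold. Since that brain was the highest control for *Aldoc*, the larger difference follows from leaving it out. With the brainstem and spinal cord score in the model, the log2 fold change of *Aldoc* was 0.11 (adjusted p = 1.000 by edgeR), and leaving out other single brains gave 0.31 to 0.44.

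Outside the 10 genes, 20 tested genes encode the remaining enzymes of the pathway and the tissue-restricted isozymes. *Eno1*, the general enolase, was at 181 CPM at 0 ppm and 213 CPM at 50 ppm (log2 fold change 0.23, adjusted p = 0.999 by edgeR), while *Eno2*, the neuronal enolase, had a log2 fold change of 0.13. *Gapdh*, the dehydrogenase of the middle of the pathway, had 413 and 445 CPM (log2 fold change 0.11), and the hexokinases *Hk1* and *Hk2*, which open it, 0.01 and 0.23. *Ldhb* had a log2 fold change of 0.07. Of the 20, 2 were higher (*Aldoc* and *Eno1*) and 1 lower (*Hkdc1*) at an unadjusted p-value under 0.05, and none at the adjusted threshold. The lists of glucose and lactate transporters, the citrate cycle and the shuttles of NADH to mitochondria had 0 genes past either threshold among 13, 24 and 9 tested. Unadjusted, 2.31% of all genes tested passed with a higher and 1.44% with a lower level. The glucose transporters *Slc2a1* of vessels and astrocytes and *Slc2a3* of neurons had log2 fold changes of -0.12 and 0.06, and the former turned to 0.01 without 0 ppm replicate 3.

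Among genes that regulate glycolysis, 1 of 17 was higher and 1 lower at an unadjusted p-value under 0.05, beside 2.31% and 1.44% of all genes. *Txnip*, which restrains glucose uptake and is induced by glucose, stood at 58.4, 55.2, 66.9 and 68.3 CPM in the control brains and at 63.8, 107, 84.9 and 120 CPM in the exposed brains (log2 fold change 0.59, SE 0.14, adjusted p = 0.358 by edgeR). It passed the threshold in 2 of the 15 alternatives, without 50 ppm replicate 1 (0.74, adjusted p = 0.0175) and without a filter (0.59, adjusted p = 0.00358). Replicate 1 was the exposed brain with the least *Txnip*, so the larger difference follows from leaving it out. *Txnip* had an adjusted p of 0.0939 with DESeq2, 0.999 in the robust edgeR fit and 0.935 with the brainstem and spinal cord score (edgeR). Its lowest exposed brain lay below 2 controls, and the other 3 lay above all of them; 19.4% of its exons overlap Gm15441 on the opposite strand. *Pdp2*, a phosphatase that activates pyruvate dehydrogenase, had means of 38.7 and 31.3 CPM (log2 fold change -0.31, adjusted p = 0.862 by edgeR). The pentose phosphate list had 1 of 8 higher and the glycogen and gluconeogenesis list 1 of 14, and the hypoxia list, which holds the HIF subunits, their regulators and targets outside glycolysis, had 1 of 18 higher, with a median log2 fold change of 0.003. Those 3 genes, *Rpe*, *Gyg* and *Bnip3*, were named after their values were seen. Median log2 fold changes of these lists lay between -0.02 (regulators) and 0.06 (other enzymes, transporters and glycogen), below the 0.18 of the 10 genes, as a description with no test.

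**Figure D5:**
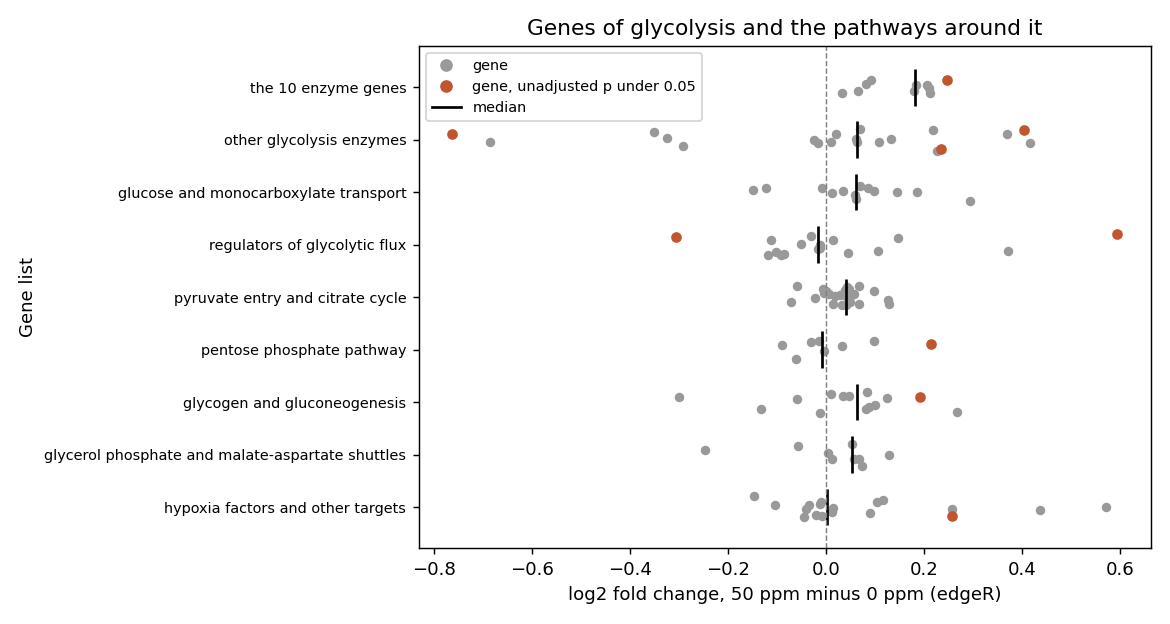
Log2 fold changes (50 ppm against 0 ppm, edgeR) of single genes in the 10 enzyme genes and the other pathway lists, each point 1 gene (orange where the unadjusted p-value was under 0.05) and each line the median of its list. The 10 genes are all above 0 with a median of 0.18, and the other lists spread on both sides of 0 with medians of -0.02 to 0.06.

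Over the 8 brains, single genes followed the mean of the other 9 to different degrees. *Tpi1* (Pearson r = 0.989), *Aldoa* (0.968) and *Pkm* (0.937) followed it most closely, then *Pfkl* (0.896), *Ldha* (0.816), *Pgam1* (0.776), *Pgk1* (0.738) and *Gpi1* (0.737), while *Pfkm* (0.435) and *Pfkp* (0.218) did so least. Of 10312 genes with a mean of at least 10 CPM outside the lists of glycolysis enzymes, the 5 whose levels were most like the mean of the 10 were *Plxdc2* (r = 0.972), *Clcn5* (0.967), *Pla2g3* (0.965), *Daam2* (0.961) and *Pdk1* (0.959), over 8 brains. *Pdk1* encodes a kinase that switches off pyruvate dehydrogenase. These correlations rest on brains that share their tissue and preparation, include the difference between the doses, and were picked as the highest of many.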

How the data were processed

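Raw counts of reads on each gene, not normalized, were deposited by the authors for the 8 brains. They assessed read quality with FastQC, removed low-quality bases from the read starts, and used STAR for alignment to the Ensembl C57BL/6J genome (GRCm38) and HTSeq for counting. The genome releases are named in the study's methods; the versions of these tools and the strand setting are not given in the sources used here. A second count table, for the CAST/EiJ genome, was not used here, because its identifiers could not be paired with these genes. Genes were kept if at most 5 of the 8 libraries had 0 counts (23113 of 49585). Differences were tested with edgeR 4.0.16 (TMM, quasi-likelihood test, treatment only, Benjamini-Hochberg adjustment) in R 4.3.3. Standard errors (SE) were derived from the log2 fold change and the F statistic. CPM use the TMM library sizes (factors 0.986 to 1.02). On simulated counts, 94% of 200 genes changed by 1 on the log2 scale were called among 22580 genes. Changes as small as those of the 10 genes (0.03 to 0.25) were not simulated, so that share does not apply to them. Alternatives were DESeq2 1.42.0, its size factors, other filters, the robust fit, limma 3.58.1 (voom with quality weights), a brainstem and spinal cord score as covariate and each library left out in turn. Isozyme shares were tested by exact permutation in Python 3.11.15. Gene names covered 49326 of the identifiers. The genes, lists and tests were chosen with earlier results of these data known. Named genes are the 10 enzymes, 9 partners of the same steps, at most 15 list genes with the smallest unadjusted p under 0.05, and the 5 genes most like the mean of the 10. Other names given with a count of 5 or fewer were chosen after their values were seen. Pseudogenes of these enzymes had 0 to 8 counts over all 8 libraries. Replicate numbers follow accession order and only name the brains. Some single genes of the lists are not reported here.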

Additional observations from a re-analysis of the deposited data

Results flagged for a closer look

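In 4 of the 32 groups of 4 brains examined, the extreme brain lay farther from the others than Dixon's 95% critical value allows, which chance gives in about 1 in 20 groups. *Pgam1* in 0 ppm replicate 3 was at 60.8 CPM, the highest control. The *Pfkm* share of phosphofructokinase was 66.2% in 50 ppm replicate 2, the highest of its group. The *Pfkp* share was 16.8% in 0 ppm replicate 4, the highest control. The *Aldoa* share of *Aldoa* and *Aldoc* was 68.8% in 50 ppm replicate 4, the lowest of its group.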

How the results depend on the processing

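No paired analysis was possible because the labels give no replicate numbers that tie brains of different doses, and the numbers used here only name the brains. No enzyme gene passed the adjusted threshold under any of the 15 alternatives. The count with an unadjusted p-value under 0.05, 1 of 10 in the analysis as reported, was 5 without a filter, 5 with limma-voom and 0 with the brainstem and spinal cord score in the model. Of all genes, 2.21%, 2.95% and 2.22% had one with a higher level at 50 ppm in those fits, and 2.31% as reported. In either direction the shares were 3.74%, 4.89% and 4.22%, and 3.75% as reported. The count of enzyme genes lay between 0 and 7 when single brains were left out. With that score, the log2 fold changes of *Pfkl* and *Pfkp* were -0.029 and -0.054. Without single brains, that of *Pfkl* lay between -0.024 (without 0 ppm replicate 2) and 0.23 and that of *Pfkm* between -0.026 (without 0 ppm replicate 2) and 0.083. In the same way, the difference in the *Pfkl* share lay between -0.14 and 1.59 percentage points, with values of -0.07 without 0 ppm replicate 2, -0.14 without 50 ppm replicate 3 and -0.01 without 50 ppm replicate 4. The causes were not tested. The median log2 fold change of the 10 lay between 0.03 and 0.26 over all alternatives. Summing several *Aldoa* identifiers gave no other value, since the table holds 1. Every enzyme gene had at least 1341 counts in each library, and 4 brains a dose limit the precision.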
